A study of Mus musculus with 10 samples.

Results

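The p53 transcription factor and 8 of its target genes were followed in sorted skin keratinocytes of a mouse model of Hutchinson-Gilford progeria (HGPS). The 9 genes were Trp53, which encodes p53, and Cdkn1a, Mdm2, Ccng1, Bax, Sesn1, Sesn2, Btg2 and Phlda3. They were chosen by gene symbol, and each had 1 locus of status OK that names no other gene. Loci of status OK numbered 11290 in the basal table, 364 of them merged or unnamed, and 11464 in the suprabasal table, 368 of them merged or unnamed. The tested animals are labelled bitransgenic HGPS (BT) and the reference animals wild type (WT), all FVB/N mice at postnatal day 4. RNA came from skin keratinocytes sorted by flow cytometry, with 2 BT and 3 WT samples of basal cells and 2 BT and 3 WT samples of suprabasal cells. The series title concerns progerin, the shortened lamin A of HGPS, which stays anchored in the nuclear envelope. The labels used here name neither the transgenes nor the promoter that drives them, and they do not say whether the 6 title stems are single animals. All 3 WT stems and 1 BT stem occur in both layers.

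As background, p53 is held low in unstressed cells by Mdm2, a ubiquitin ligase that p53 itself induces. DNA damage, replication stress or nuclear stress stabilises the protein, which then raises a set of genes for cell cycle arrest, apoptosis, repair and metabolic restraint. In keratinocytes the related factor p63 (Trp63) maintains the basal layer, and p53 is known for the response of skin to ultraviolet light. Because p53 is regulated mainly through its protein, the transcripts of its targets are read here beside that of Trp53 itself.

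The 9 genes differ in the letters before their starts. The p53 half-site was searched by its name (3 purines, C, A or T, A or T, G, 3 pyrimidines, which reads the same on both strands) in the 250 bases before each annotated RefSeq start (build GRCm38.p6). All 9 genes had a window to search, with 11 starts, since Cdkn1a and Sesn1 have 2 each. An exact half-site occurred in 6 of these 11 windows, 1 for each of 6 genes, against 7.13% of all 32851 windows. These were Cdkn1a (gaacatgtct and ggactagctt), Trp53 (ggacttgccc), Mdm2 (gaacttgcct), Ccng1 (gggcaagcct), Bax (aggcaagctt) and Sesn1 (aagcttgttt). Btg2, Sesn2 and Phlda3 held none in this window, nor did the second start of Cdkn1a and the first of Sesn1. The windows of Cdkn1a and Ccng1 are shown because they hold a pair of half-sites side by side, with at most 1 mismatch each and no spacer, which 0.174% of all windows held, a spacing chosen after the windows were read. Cdkn1a is shown for its first start (chr17:29090729-29090978, plus strand) and Ccng1 for its start (chr11:40755287-40755536, minus strand). Capitals mark the pair. The window of Btg2 (chr1:134079156-134079405, minus strand) is shown because Btg2 has the largest genotype difference of the 9. Its capitals mark the cAMP response element, TGACGTCA, the site of CREB and ATF factors, which 1.55% of all windows held and no other of the 9 genes, also searched after the window was read.
Cdkn1a: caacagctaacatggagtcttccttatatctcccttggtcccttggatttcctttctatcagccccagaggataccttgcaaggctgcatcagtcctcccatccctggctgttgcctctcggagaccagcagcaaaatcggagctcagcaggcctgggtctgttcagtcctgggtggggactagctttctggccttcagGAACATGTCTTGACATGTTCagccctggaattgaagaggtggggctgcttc
Ccng1: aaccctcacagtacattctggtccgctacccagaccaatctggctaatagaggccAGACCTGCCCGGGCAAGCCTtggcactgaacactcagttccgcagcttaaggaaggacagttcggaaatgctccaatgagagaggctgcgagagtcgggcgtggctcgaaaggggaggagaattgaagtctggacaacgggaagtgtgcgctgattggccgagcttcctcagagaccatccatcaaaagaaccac
Btg2: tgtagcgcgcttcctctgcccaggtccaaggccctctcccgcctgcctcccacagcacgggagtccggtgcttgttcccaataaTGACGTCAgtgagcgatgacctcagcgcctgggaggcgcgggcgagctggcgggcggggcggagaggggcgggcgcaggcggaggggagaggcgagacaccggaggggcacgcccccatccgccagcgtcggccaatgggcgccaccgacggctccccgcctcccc

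**Figure D1:**
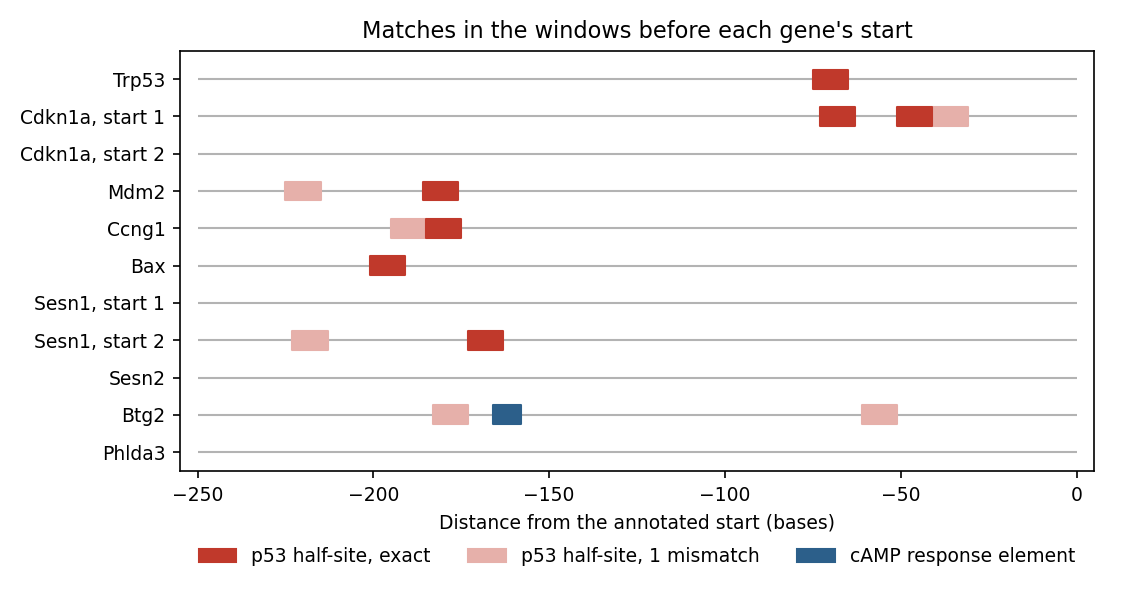
Matches in the 250 bases before each annotated start (x axis, distance from the start in bases), 1 line per window, with Cdkn1a and Sesn1 on 2 lines each. Dark red blocks are exact p53 half-sites, pale blocks half-sites with 1 mismatch and the blue block the cAMP response element. Adjoining blocks appear at the first start of Cdkn1a and at Ccng1.

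The letters are a description of these windows. A match is not a binding site, and a window with none says only that these letters are not in it.

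Expression levels are the authors' group values, 1 per genotype and layer, read as FPKM (fragments per kilobase of transcript, scaled to the mapped fragments), so they carry no error of their own and the depth behind them is unknown. The layers were deposited as separate tables that were normalized separately. The ± beside a log2 fold change (BT over WT) is the standard error (SE) implied by the authors' p-value. For each of the 9 genes the authors' test statistic, read as log2 fold change over SE, implies a larger SE and wider intervals. Every level, log2 fold change and q given is that of the authors' deposited tables. A gene was called where the authors' q, their adjusted p, was under 0.05. None of the 9 genes was called in either layer, where 1.65% of all basal loci (0.257% higher, 1.39% lower) and 0.471% of all suprabasal loci (0.0523% higher, 0.419% lower) were. Readjusting the authors' p over the loci of status OK called 0.558% of basal and 0.41% of suprabasal loci, and again none of the 9. Of the 9 genes, 4 lay above 0 and 5 below in basal cells, and 3 above and 6 below in suprabasal cells. Their median log2 ratio, with 1 FPKM added to each level, was -0.14 in basal and -0.22 in suprabasal cells, beside -0.11 and -0.08 over all loci, of which 60.3% of basal and 56.6% of suprabasal ones lay below 0. At the authors' unadjusted p under 0.05 there was 1 gene in each layer, Btg2 both times, where 7.68% of basal loci (1.47% higher, 6.21% lower) and 7.11% of suprabasal loci (1.95% higher, 5.16% lower) passed. At a q under 0.10, which 2.73% of basal and 0.715% of suprabasal loci met, Btg2 passed in basal cells alone.

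Values of the sort and of other cell types stand beside all these results. The 8 basal keratinocyte markers, 2 of them in merged loci, summed to 12006 FPKM in BT and 18761 FPKM in WT basal cells, with 8 below 0, and to 4703 FPKM in BT and 8692 FPKM in WT suprabasal cells, with 7 below 0. Of these the keratin gene Krt15 fell in both layers, to 308 FPKM in BT against 1602 FPKM in WT basal cells (q = 0.0371) and to 124 FPKM in BT against 1025 FPKM in WT suprabasal cells (q = 0.0161), and the basal call was lost with p readjusted over the loci of status OK. Most of each basal marker sum came from the 2 merged loci, which also hold other keratin genes. In basal cells the locus of Krt14 and Krt16 had 3926 FPKM in BT and 4375 FPKM in WT. The merged locus of Krt5 had 6923 FPKM in BT and 11677 FPKM in WT basal cells. The 8 suprabasal keratinocyte markers were mixed, with 4 above and 4 below 0 in basal cells and 5 above and 3 below in suprabasal cells. They summed to 10696 FPKM in BT and 8621 FPKM in WT basal cells, and to 14221 FPKM in BT and 18766 FPKM in WT suprabasal cells. Of them 1, Lor, was called, lower in BT basal cells (q = 0.0347), a call also lost with readjusted p. Of 8 melanocyte markers, 8 were measured in suprabasal cells, summing to 3843 FPKM in BT and 2073 FPKM in WT cells, and 3 in basal cells, summing to 12.9 FPKM in BT and 8.38 FPKM in WT cells. Of 7 fibroblast markers, 5 summed to 32.5 FPKM in BT and 23.8 FPKM in WT suprabasal cells, and 2 had a basal locus, both with the lower value in BT, 1 of them called until p was readjusted. Of 6 leukocyte markers, 2 summed to 16.4 FPKM in BT and 14.2 FPKM in WT suprabasal cells and 1 had 5.02 FPKM in BT and 5.79 FPKM in WT basal cells. None of 4 endothelial markers had a locus in either table. The merged locus of Xist, an RNA of the inactive X chromosome, had 108 FPKM in BT and 0.258 FPKM in WT basal cells (8.71 ± 2.75, q = 0.0371). In suprabasal cells it had 103 FPKM in BT and 0.236 FPKM in WT (8.77 ± 2.94, q = 0.141). The labels used here do not give the sex of the animals. Xist values went with genotype in both layers, so any part of sex cannot be told apart from that of genotype here. The part of the keratinocyte layers, of melanocytes and of sex in the values of the 9 genes was not tested. In sorted bulk samples, fewer cells of a type and less RNA per cell cannot be told apart.

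The transcript of p53 itself was not called as different between the genotypes. Trp53 had 89.4 FPKM in BT and 83.3 FPKM in WT basal cells, and 60.1 FPKM in BT and 73.7 FPKM in WT suprabasal cells. The BT value was the higher one in basal cells and the lower one in suprabasal cells. The log2 fold change was 0.10 ± 0.27 in basal cells (q = 0.887) and -0.29 ± 0.34 in suprabasal cells (q = 0.896). As a fold, the 95% interval ran from 0.748 to 1.54 in basal and from 0.515 to 1.29 in suprabasal cells. With the SE implied by p, neither holds a doubling or a halving. The authors' test statistic (-0.565 in suprabasal cells) implies a larger SE, with which the suprabasal interval would hold a halving. Trp53 lay above the 90th percentile of levels in all 4 groups (90.8 to 93.8). Its locus is on chromosome 11 from 69580359 to 69591873 (mm10, plus strand).

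Mdm2, the ligase that marks p53 for degradation and is induced by it, did not differ beyond its error either. It had 20.5 FPKM in BT and 22.7 FPKM in WT basal cells, and 19.6 FPKM in BT and 25.0 FPKM in WT suprabasal cells. The BT value was the lower one in both layers, by -0.14 ± 0.42 (q = 0.903) and -0.35 ± 0.53 (q = 0.941) on the log2 scale. The suprabasal interval of the fold, 0.380 to 1.63, still holds a halving. Per FPKM of Trp53, Mdm2 stood at 0.230 in BT and 0.272 in WT basal cells, and at 0.326 in BT and 0.339 in WT suprabasal cells. Mdm2 lies on chromosome 10 from 117688888 to 117710758.

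**Figure D2:**
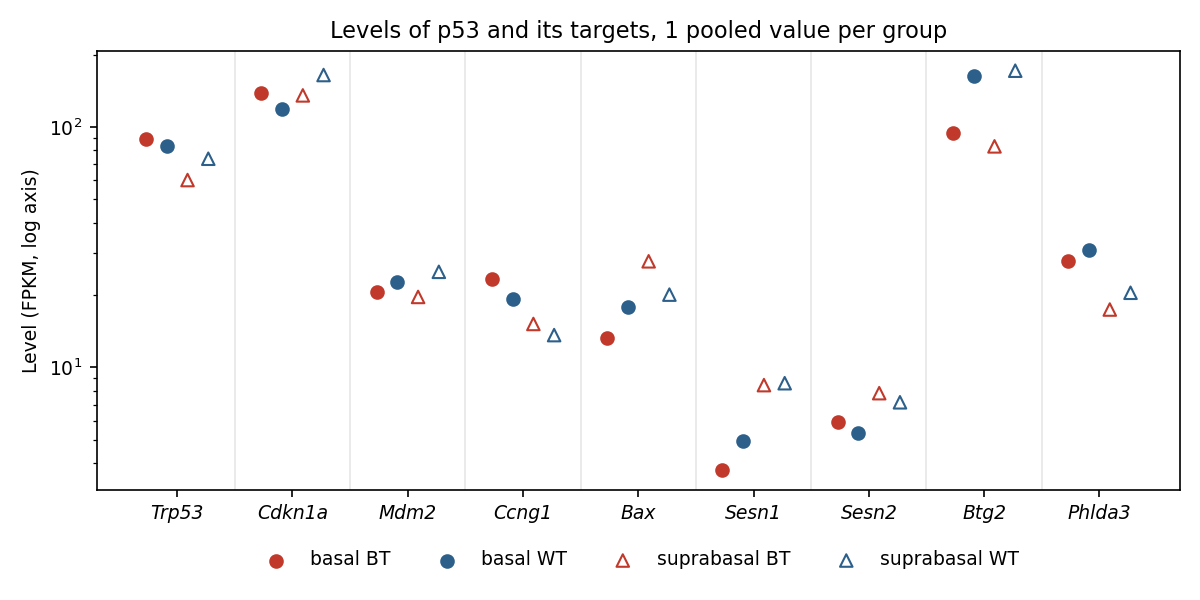
Level of each of the 9 genes (y axis, FPKM on a log scale) in the 4 groups, 1 pooled value each. BT is red and WT blue, with filled circles for basal and open triangles for suprabasal cells. Cdkn1a, Btg2 and Trp53 are the 3 highest in every group, and Btg2 is the gene whose BT points sit furthest below its WT points.

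Of the arrest genes, Cdkn1a, which encodes the cyclin-dependent kinase inhibitor p21 and is the best known p53 target, was among the most abundant of the 9. It had 138 FPKM in BT and 119 FPKM in WT basal cells, and 135 FPKM in BT and 164 FPKM in WT suprabasal cells. The BT level was thus nearly alike in the layers, while the WT level was higher in the suprabasal table. The log2 fold changes were 0.21 ± 0.27 (q = 0.735) and -0.28 ± 0.34 (q = 0.906). The interval of the fold reached 1.67 at its upper end in basal cells and 1.30 in suprabasal cells. A doubling of Cdkn1a lies outside both with the SE implied by p. The authors' test statistic (0.513 in basal cells) implies a larger SE, with which the basal interval would hold a doubling. Relative to Trp53, Cdkn1a stood at 1.54 in BT and 1.43 in WT basal cells, and at 2.25 in BT and 2.23 in WT suprabasal cells. Cdkn1a lies on chromosome 17 from 29090979 to 29100722, where an annotated transcript of unknown status lies on the opposite strand.

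Ccng1, which encodes cyclin G1, a p53 target that recruits a phosphatase to Mdm2, had the BT value above WT in both layers, with the highest basal log2 fold change of the 9. It had 23.2 FPKM in BT and 19.3 FPKM in WT basal cells, and 15.1 FPKM in BT and 13.6 FPKM in WT suprabasal cells. The log2 fold changes were 0.27 ± 0.29 (q = 0.689) and 0.15 ± 0.36 (q = 0.971), each smaller than its SE. Ccng1 lies on chromosome 11 from 40748552 to 40755311.

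Btg2, an antiproliferative gene that p53 induces and that serum and stress also induce as an immediate early gene, had the largest difference of the 9 in both layers. It had 94.5 FPKM in BT and 162 FPKM in WT basal cells, and 83.0 FPKM in BT and 171 FPKM in WT suprabasal cells. Both BT values were below both WT values. The log2 fold change was -0.78 ± 0.30 in basal cells (95% interval -1.36 to -0.19, q = 0.0989) and -1.05 ± 0.37 in suprabasal cells (-1.76 to -0.33, q = 0.141). Neither passed the threshold on q. The authors' test statistic was -1.76 in basal and -1.85 in suprabasal cells. It implies a larger SE, with which both intervals of Btg2 would cross 0. The fold was 0.583 (95% interval 0.389 to 0.874) and 0.485 (0.294 to 0.798). By p it ranked 307 of 11290 basal and 184 of 11464 suprabasal loci. An authors' p under 0.05 with a lower BT level in both layers was met by 182 of 10583 loci shared by the tables, or 1.72%. Btg2 lies on chromosome 1 from 134074265 to 134079120 (minus strand).

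Other immediate early genes had lower BT values beside Btg2. Their list was chosen with earlier results of these data known, so its counts beside those of all loci are description only. Of 18 loci for immediate early and heat shock genes in basal cells, 6 fell, where 1.39% of all loci did, and none rose. In suprabasal cells 5 of 17 loci fell, where 0.419% of all loci did, and none rose. Below 0 lay 17 basal and 17 suprabasal loci of the list, beside 60.3% and 56.6% of all loci. The median log2 ratio of this list was -1.10 in basal and -1.38 in suprabasal cells, beside -0.11 and -0.08 over all loci. Junb, a subunit of the AP-1 factor, had 96.0 FPKM in BT and 266 FPKM in WT basal cells (-1.47 ± 0.36, q = 0.00858), and 52.4 FPKM in BT and 229 FPKM in WT suprabasal cells (-2.13 ± 0.53, q = 0.0161). Ier2, a nuclear immediate early protein, had 71.5 FPKM in BT and 176 FPKM in WT basal cells (-1.30 ± 0.32), and 41.8 FPKM in BT and 139 FPKM in WT suprabasal cells (-1.73 ± 0.43). Both fell in both layers, as did the cochaperone gene Dnajb1 and the heat shock genes Hspa1a and Hspa1b, which share a locus. Fos and Fosb fell in basal cells and Jund in suprabasal cells. With p readjusted over the loci of status OK, the basal calls of Fos (0.149) and Fosb (0.196) were lost, and the other 9 calls of the list were not. Their part in the Btg2 values was not tested. Of the 14 genes of this list with a RefSeq window, 1, Dusp1, held the cAMP response element that Btg2 holds.

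Of the apoptosis genes, Bax, which permeabilises the outer mitochondrial membrane, had opposite signs in the layers. It had 13.3 FPKM in BT and 17.8 FPKM in WT basal cells, and 27.6 FPKM in BT and 20.1 FPKM in WT suprabasal cells. BT cells thus had the lowest Bax level of the 4 groups in the basal table and the highest in the suprabasal table. The log2 fold changes were -0.42 ± 0.45 (q = 0.678) and 0.46 ± 0.41 (q = 0.845). The suprabasal interval of the fold ran from 0.784 to 2.42. With the SE implied by p, it is the only one of the 9 genes in either layer that holds a doubling. Against Mcl1, an anti-apoptotic partner, Bax stood at 0.394 in BT and 0.370 in WT basal cells, and at 0.592 in BT and 0.364 in WT suprabasal cells. Against Bcl2 it stood at 4.73 in BT and 3.79 in WT basal cells, and at 3.09 in BT and 3.42 in WT suprabasal cells. Against Bcl2l1, which encodes Bcl-xL, it stood at 1.33 in BT and 1.70 in WT basal cells, and at 1.75 in BT and 1.37 in WT suprabasal cells. In suprabasal cells the BT ratio was thus above WT for Mcl1 and Bcl2l1 and below it for Bcl2. Bax lies on chromosome 7 from 45461695 to 45466898, where the annotation (GENCODE M21) also places the protein-coding gene Gm45808 on the same strand, so its value is uncertain by any fragments they share.

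Phlda3, which encodes a pleckstrin-homology protein that restrains Akt, had 27.8 FPKM in BT and 30.7 FPKM in WT basal cells, and 17.4 FPKM in BT and 20.4 FPKM in WT suprabasal cells. The BT value was the lower one in both layers, by -0.14 ± 0.36 (q = 0.885) and -0.23 ± 0.42 (q = 0.960) on the log2 scale. Both differences were smaller than their SE. Phlda3 lies on chromosome 1 from 135766109 to 135769172.

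The sestrins, which restrain mTORC1 when amino acids are scarce, were the least abundant of the 9. Sesn1 had 3.75 FPKM in BT and 4.93 FPKM in WT basal cells, and 8.43 FPKM in BT and 8.59 FPKM in WT suprabasal cells (-0.39 ± 0.56, q = 0.773, and -0.03 ± 0.46, q = 0.998). Sesn2, which ATF4 also induces, had 5.92 FPKM in BT and 5.33 FPKM in WT basal cells, and 7.81 FPKM in BT and 7.15 FPKM in WT suprabasal cells (0.15 ± 0.37, q = 0.879, and 0.13 ± 0.40, q = 0.981). Both had the higher level in the suprabasal table in either genotype. Sesn2 exceeded Sesn1 in basal cells, by a ratio of 1.58 in BT and 1.08 in WT cells, and was below it in suprabasal cells, with ratios of 0.926 in BT and 0.833 in WT cells. Sesn1 lies on chromosome 10 from 41810574 to 41908424, where the annotated 9930024M15Rik overlaps it on the same strand, and Sesn2 on chromosome 4 from 132492018 to 132510501, where the annotated gene Gm12981 overlaps it and has a locus of its own in the tables.

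**Figure D3:**
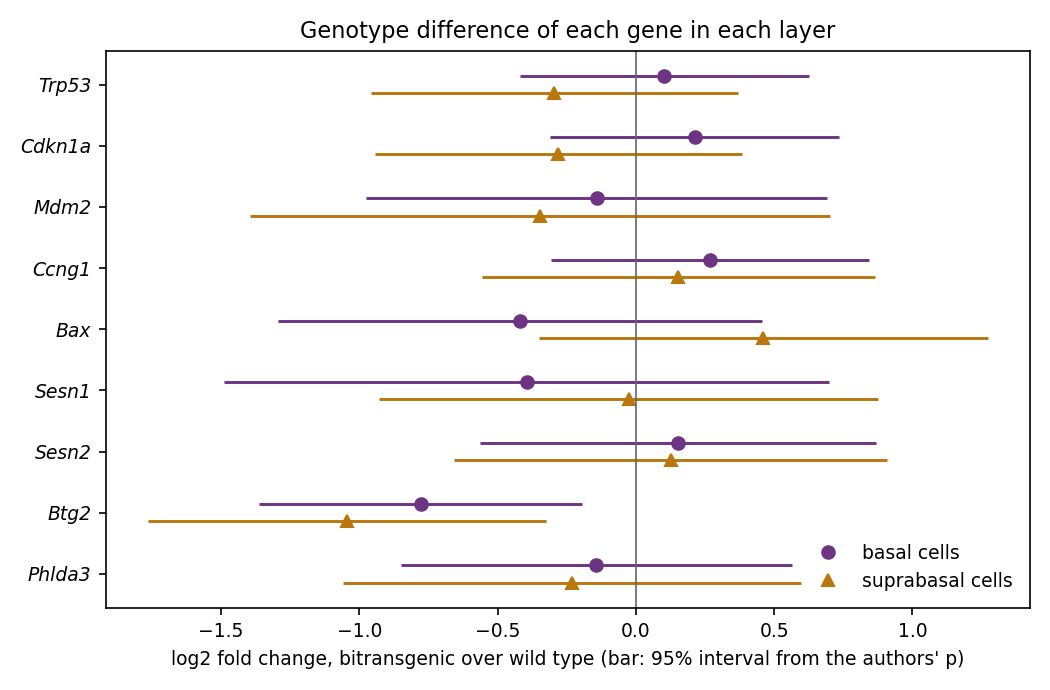
Log2 fold change of BT over WT (x axis) for each of the 9 genes, with circles for basal and triangles for suprabasal cells. Bars are 95% intervals from the SE implied by the authors' p. The bars of Btg2 lie below 0 in both layers, and the bars of the other 8 genes cross 0. With the larger SE implied by the authors' test statistic, the bars of Btg2 would cross 0 too.

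The order of levels was led by the same 3 genes in every group. In BT basal cells it was Cdkn1a, Btg2, Trp53, and in WT basal cells Btg2, Cdkn1a, Trp53. In BT suprabasal cells it was again Cdkn1a, Btg2, Trp53, and in WT suprabasal cells Btg2, Cdkn1a, Trp53. Btg2 was thus first in both WT groups and second in both BT groups. Sesn1 and Sesn2 were the lowest pair in every group. With 1 value per group, which neighbours in this order differ could not be tested.

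Between the layers the question was whether a gene's genotype difference is larger in one of them. The difference of the 2 log2 fold changes (suprabasal less basal) was put to a Wald z-test, two-sided and adjusted by the Benjamini-Hochberg method across 10579 loci. It passed none of the 9 genes, where 4 loci or 0.0378% passed in all. None of the 9 had an unadjusted p under 0.05 in this test, where 3.08% of loci did. Bax had the largest layer difference, 0.88 ± 0.61 (95% interval -0.31 to 2.07). Cdkn1a had -0.49 ± 0.43 (-1.34 to 0.35) and Trp53 -0.40 ± 0.43 (-1.24 to 0.45). Btg2 had -0.27 ± 0.47 (-1.19 to 0.66). The remaining 5 genes lay between -0.21 for Mdm2 and 0.37 for Sesn1. The intervals are wide, and each of the 9 holds a layer difference of 1 on the log2 scale in at least 1 direction.

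The level in suprabasal over that in basal cells is given as a description, since it crosses the 2 tables. Sesn1 had the highest ratio in both genotypes, 2.25 in BT and 1.74 in WT cells. Bax had 2.08 in BT and 1.13 in WT cells. Phlda3 (0.626 in BT, 0.665 in WT), Ccng1 (0.652 in BT, 0.705 in WT) and Trp53 (0.672 in BT, 0.885 in WT) were lower in suprabasal cells of both genotypes. Cdkn1a had 0.980 in BT and 1.38 in WT cells.

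The wider p53 network was read from lists of regulators and targets beside the 9 genes. All lists were chosen with earlier results of these data known, so their counts are description only. Over 4 lists of further targets (arrest, apoptosis, repair and metabolism, secreted and surface proteins), 44 loci were measured in basal cells, of which 2 fell, where 1.39% of all loci did, and none rose. In suprabasal cells 42 were measured and none was called, where 0.471% of all loci were. At an unadjusted p under 0.05 there were 5 lower and 1 higher in basal cells, beside 6.21% and 1.47% of all loci, and 6 lower and 0 higher in suprabasal cells, beside 5.16% and 1.95%. The median log2 ratio was -0.08 in basal and -0.28 in suprabasal cells, beside -0.11 and -0.08 over all loci, and 30 loci lay below 0 in each layer, beside 60.3% of all basal and 56.6% of all suprabasal loci. The 2 that fell in basal cells were Igfbp3, a secreted IGF-binding protein known as a p53 target in human cells (3.30 FPKM in BT and 30.8 FPKM in WT, -3.22 ± 0.79, q = 0.00858), and Thbs1, the matrix protein thrombospondin 1 (38.1 FPKM in BT and 69.4 FPKM in WT, -0.87 ± 0.29, q = 0.0457). The call of Thbs1 was lost with p readjusted over the loci of status OK (0.210), and that of Igfbp3 was not (0.0128). In suprabasal cells Igfbp3 had 1.77 FPKM in BT and 8.81 FPKM in WT (q = 0.110) and Thbs1 19.8 FPKM in BT and 35.0 FPKM in WT (q = 0.398). Cd82, a tetraspanin gene, had 22.96 FPKM in BT and 31.1 FPKM in WT basal cells (q = 0.498), and 14.4 FPKM in BT and 28.7 FPKM in WT suprabasal cells (q = 0.243).

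Of the arrest targets, none of 9 loci was called in either layer, where 1.65% of all basal and 0.471% of all suprabasal loci were. Tob1, an antiproliferative relative of Btg2, had 26.7 FPKM in BT and 47.4 FPKM in WT basal cells (-0.83 ± 0.30, q = 0.0843), and 23.6 FPKM in BT and 31.7 FPKM in WT suprabasal cells (q = 0.843). Plk2, a polo-like kinase, had 54.2 FPKM in BT and 66.5 FPKM in WT basal cells and 54.0 FPKM in BT and 82.9 FPKM in WT suprabasal cells (q = 0.618). Ptprv, a phosphatase gene, had 20.8 FPKM in BT and 15.8 FPKM in WT basal cells (q = 0.869).

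Of the apoptosis targets, none of 12 loci was called in either layer, where 1.65% of all basal and 0.471% of all suprabasal loci were. Bbc3, which encodes the BH3-only protein Puma, had 1.43 FPKM in BT and 2.53 FPKM in WT basal cells and 2.20 FPKM in BT and 6.21 FPKM in WT suprabasal cells (-1.50 ± 0.59, q = 0.202). Siva1, a pro-apoptotic gene, had 33.2 FPKM in BT and 66.4 FPKM in WT basal cells (q = 0.0948). Casp8, the initiator caspase of death receptors, had 19.97 FPKM in BT and 14.0 FPKM in WT basal cells (q = 0.466). Aen, an exonuclease gene, was split over 2 loci, of which the smaller had 12.5 FPKM in BT and 3.61 FPKM in WT suprabasal cells with an SE of 2.96 on the log2 scale.

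Of the repair and metabolism targets, none of 16 basal or 15 suprabasal loci was called, where 1.65% and 0.471% of all loci were. Ddit4, an mTORC1 inhibitor, had 28.5 FPKM in BT and 35.4 FPKM in WT basal cells and 21.3 FPKM in BT and 47.7 FPKM in WT suprabasal cells (-1.16 ± 0.39, q = 0.141). Ddb2, a damage recognition factor of nucleotide excision repair, had 4.79 FPKM in BT and 9.13 FPKM in WT basal cells (q = 0.466). Rrm2b, the ribonucleotide reductase subunit that p53 induces, had 6.05 FPKM in BT and 3.58 FPKM in WT suprabasal cells (q = 0.862). Tap1, a peptide transporter, had 6.81 FPKM in BT and 18.6 FPKM in WT basal cells (q = 0.466).

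**Figure D4:**
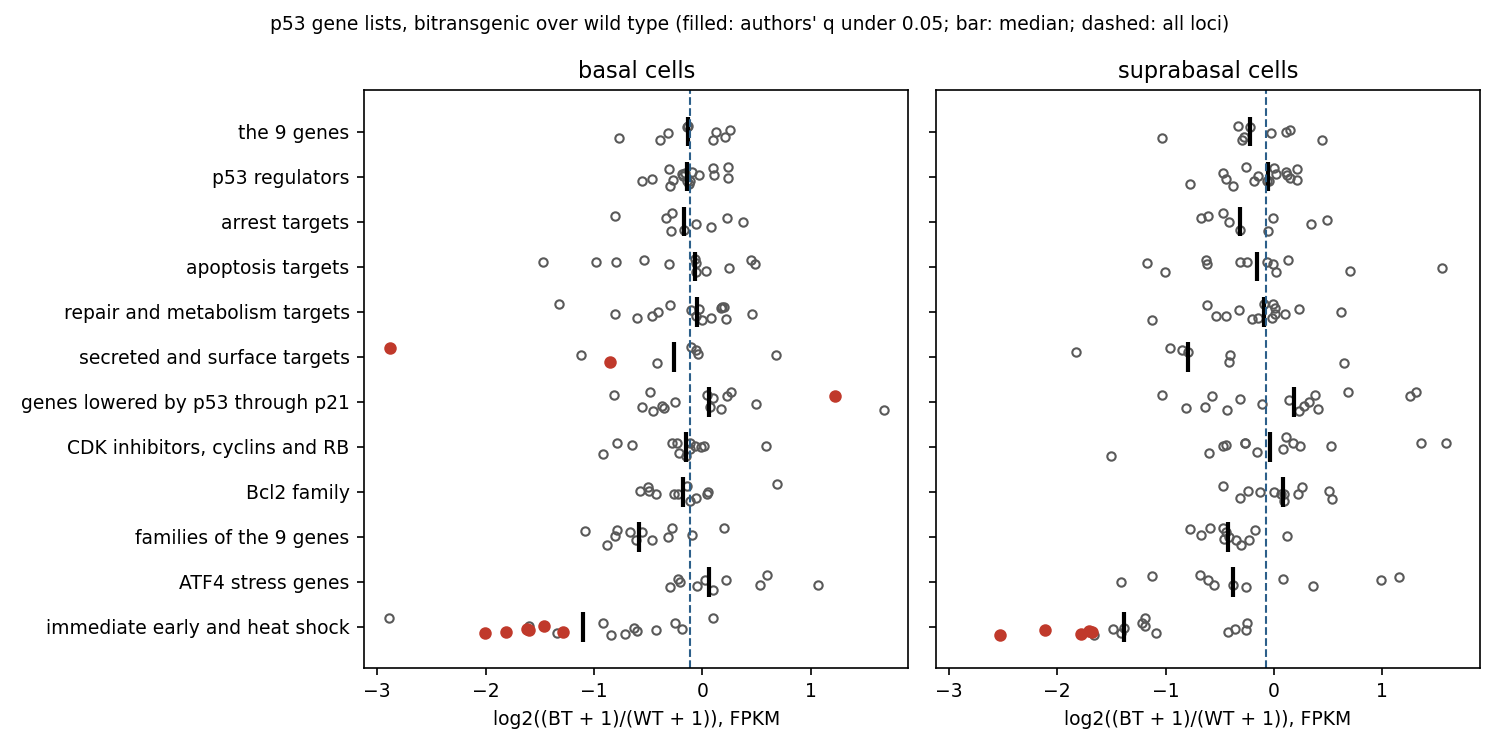
Log2((BT + 1)/(WT + 1)) in FPKM (x axis) of every locus in the 9 genes and in 11 lists of related genes (rows), for basal cells on the left and suprabasal cells on the right. Filled red points passed the authors' q under 0.05, black bars are list medians and the dashed line is the median of all loci. Filled points gather in the immediate early and heat shock row, with 6 in basal and 5 in suprabasal cells, and none lies in the row of the 9 genes.

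Among the regulators of p53, none of 17 basal or 16 suprabasal loci was called, where 1.65% and 0.471% of all loci were. Mdm4, which binds p53 and blocks its activity, had 18.8 FPKM in BT and 26.4 FPKM in WT basal cells (-0.49 ± 0.40, q = 0.561), and 15.1 FPKM in BT and 26.5 FPKM in WT suprabasal cells (-0.81 ± 0.42, q = 0.546). The ratio of Mdm2 to Mdm4 was 1.09 in BT and 0.859 in WT basal cells, and 1.30 in BT and 0.944 in WT suprabasal cells. Trp73, a p53 relative, had 4.95 FPKM in BT and 7.78 FPKM in WT basal cells (q = 0.367) and 3.53 FPKM in BT and 5.28 FPKM in WT suprabasal cells (q = 0.801). Cdkn2a, which encodes p16 and the Mdm2 inhibitor Arf, had no locus in either table.

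Genes that p53 is known to lower through p21 include many of mitosis. Of 16 loci for 14 such genes in basal cells, 1 rose, where 0.257% of all loci did, and none fell. In suprabasal cells none was called, where 0.471% of all loci were. Top2a, a topoisomerase of dividing cells, rose to 196 FPKM in BT basal cells, against 83.2 FPKM in WT (1.23 ± 0.30, q = 0.00858), and had 33.9 FPKM in BT and 30.7 FPKM in WT suprabasal cells. The list median was 0.06 in basal and 0.19 in suprabasal cells, beside -0.11 and -0.08 over all loci. In each layer 9 loci lay above 0 and 7 below. At an unadjusted p under 0.05, 1 locus was higher and 1 lower in each layer. The shares of all loci were 1.47% and 6.21% in basal and 1.95% and 5.16% in suprabasal cells. Ccnb1, cyclin B1, had 13.3 FPKM in BT and 18.6 FPKM in WT basal cells and 6.39 FPKM in BT and 1.99 FPKM in WT suprabasal cells (q = 0.417).

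Other cell cycle inhibitors and their partners gave no call among 13 basal and 14 suprabasal loci, where 1.65% and 0.471% of all loci were called. Cdkn1b, which encodes p27, had 14.0 FPKM in BT and 24.8 FPKM in WT basal cells (-0.83 ± 0.34, q = 0.146), so the ratio of Cdkn1a to Cdkn1b was 9.86 in BT and 4.79 in WT basal cells and 5.04 in BT and 4.48 in WT suprabasal cells. Cdkn2d, which encodes p19Ink4d, had 11.8 FPKM in BT and 23.2 FPKM in WT basal cells (q = 0.239). The cyclin E genes Ccne1 and Ccne2 had 6.23 and 15.9 FPKM in BT suprabasal cells, against 1.82 and 4.65 FPKM in WT (q = 0.796 and 0.622).

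Of the Bcl2 family, none of 12 loci was called in either layer, where 1.65% of all basal and 0.471% of all suprabasal loci were. Bcl2, the anti-apoptotic founder, had 2.81 FPKM in BT and 4.69 FPKM in WT basal cells (q = 0.306) and 8.94 FPKM in BT and 5.86 FPKM in WT suprabasal cells (q = 0.707). Mcl1 had 33.7 FPKM in BT and 48.1 FPKM in WT basal cells (q = 0.466). Bcl2l11, which encodes Bim, had 8.87 FPKM in BT and 12.9 FPKM in WT basal cells (q = 0.536). Bak1, the relative of Bax that also forms pores, had 58.9 FPKM in BT and 41.0 FPKM in WT suprabasal cells (0.52 ± 1.09).

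Family relatives of the 9 genes, some of them on the other lists too, had the lower BT value at 11 of 12 loci in each layer. Beside them 60.3% of all basal and 56.6% of all suprabasal loci lay below 0. None of the relatives was called, where 1.65% of all basal and 0.471% of all suprabasal loci were. At an unadjusted p under 0.05 there were 4 lower in basal cells, where 6.21% of all loci were, and 0 in suprabasal cells, where 5.16% were. The median log2 ratio of these relatives was -0.59 in basal and -0.43 in suprabasal cells, beside -0.11 and -0.08 over all loci. Sesn3, the third sestrin, had 2.65 FPKM in BT and 6.74 FPKM in WT basal cells (-1.35 ± 0.60, q = 0.237), and 6.11 FPKM in BT and 7.03 FPKM in WT suprabasal cells. Btg1, the nearest relative of Btg2, was split over 2 loci. The smaller had 6.81 FPKM in BT and 13.4 FPKM in WT basal cells (-0.97 ± 1.07, q = 0.689), and the larger 38.1 FPKM in BT and 58.9 FPKM in WT basal cells (-0.63 ± 0.33, q = 0.427). Ccng2, the relative of Ccng1, had 7.03 FPKM in BT and 11.8 FPKM in WT suprabasal cells (-0.75 ± 0.49, q = 0.740).

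Genes of the ATF4 stress response, which shares Sesn2 and Ddit4 with p53, had 10 basal and 11 suprabasal loci. None of them was called, where 1.65% of all basal and 0.471% of all suprabasal loci were. The median log2 ratio of this list was 0.06 in basal and -0.38 in suprabasal cells, beside -0.11 and -0.08 over all loci. Ddit3, which encodes the stress factor CHOP, had 49.2 FPKM in BT and 21.6 FPKM in WT suprabasal cells (1.19 ± 0.75, q = 0.725), and Vldlr, a lipoprotein receptor, had 4.33 FPKM in BT and 13.2 FPKM in WT suprabasal cells (-1.61 ± 0.54, q = 0.141).

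The genes whose 4 levels were most like those of Trp53 and Cdkn1a are given by the Euclidean distance between log2 levels (1 FPKM added) centred on their own mean, over 7124 loci and 4 values each. For Trp53 they were Hnrnpa2b1, which encodes an RNA-binding protein (distance 0.0345), Smek1 (0.0465) and Gpt2 (0.0482). For Cdkn1a they were Mtx1 (0.0228), Ptdss1 (0.0253) and Pcgf3 (0.0285). With 4 values per gene many loci lie near, and 327 lay within a larger distance, 0.2, of Trp53 and 177 of Cdkn1a.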

How the data were processed

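The authors deposited 1 comparison table per layer, in the form of a Cuffdiff table. TopHat, Cufflinks and the build mm10 are named, without versions, in the submitters' processing notes. Levels are the authors' pooled group values, read as FPKM from the tools and the table form, since the header gives no unit. Per the file headers, the deposited log2 fold changes (BT over WT), test statistic (a score), p-value and q-value are the authors' own. How replicates and libraries were scaled is not given in the sources used here. Per the labels, strand-specific libraries came from nanogram amounts of total RNA. Of the loci, 26 per table had the status HIDATA and were left out.

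The 9 genes and the lists were chosen with earlier results of these data known. All 9 genes are named, and from each list the called loci and, per layer, the 2 with the largest log2 ratio among those with at least 5 FPKM in a group; Hspa8, Psat1 and Cdc25c, named by that rule, are given in the closing section. SE is the absolute log2 fold change over the normal quantile of the authors' p, and intervals are normal 95% intervals. The smallest p, 5e-05, is shared by 44 basal and 35 suprabasal loci, whose SE is an upper bound. The layer difference was tested with a two-sided Wald z-test, adjusted by Benjamini-Hochberg over loci of status OK in both tables. It takes the layers to be independent, but some title stems occur in both. The test was also run on simulated data, with the layers drawn independently and with normal errors. That run could therefore not show the effect of shared stems. Replicates are separate samples by label. How the authors' p-values model the spread between them is not given in the sources used here. Locus starts are given 1-based, as the annotation comparison showed (4451 of 10349 single-gene starts lay 1 below the GENCODE M21 start, 121 equalled it). Promoter windows are RefSeq's. Python 3.11.15, pandas 2.3.3 and scipy 1.17.1 were used.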

Additional observations from a re-analysis of the deposited data

How the results depend on the processing

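The counts of called genes were recomputed under other choices. No gene of the 9 was called in either layer with p readjusted over loci of status OK, after centring on expressed loci, with a 5 FPKM minimum, or over single-gene loci. These settings called few loci in all, 41 to 75 in basal and 37 to 52 in suprabasal cells. With the authors' q under 0.10, 1 basal gene passed (Btg2), where 2.73% of basal loci did. With unadjusted p under 0.05, 1 basal and 1 suprabasal gene passed (Btg2), where 7.68% and 7.11% of loci did. The layer difference called 0 of the 9 under each of its alternatives, including an SE from the test statistic. With adjusted p these passed 4 or 5 loci in all, and an unadjusted p under 0.05 passed 326. Centring, which shifts fold changes by 0.11 in basal and 0.08 in suprabasal cells, turned the sign of 1 of 18 values, Sesn1 in suprabasal cells, to 0.053. Pseudocounts of 1 and 5 FPKM turned none. The median over the 4 target lists ranged from -0.09 to -0.06 in basal and from -0.32 to -0.21 in suprabasal cells. Genes with a p53 match were counted, and each count equals that of windows with it among the 11 of the 9 genes. The number was 6 for the exact half-site, which 7.13% of all windows held. With 1 mismatch it was 7, where 44.7% of all windows held a match. For a pair of exact half-sites with a spacer up to 13 bases it was 1 (0.0639% of all windows). For a pair with 1 mismatch each it was 2 (2.20%), and with no spacer 2 (0.174%), the last chosen after seeing the data. No paired analysis was possible because each group has 1 pooled value in the tables analysed here, and for the same reason no replicate could be left out. Depth per sample is unknown.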

Other observations

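Some loci of the lists carry large differences with large errors. Hspa8, a constitutive chaperone gene, had 1026 FPKM in BT and 7624 FPKM in WT basal cells, with a log2 fold change of -2.89 ± 1.80 that was not called (q = 0.466), and 107.5 FPKM in BT and 144.5 FPKM in WT suprabasal cells. Psat1, a serine synthesis gene, was split over 2 loci, of which the smaller had 7.70 FPKM in BT and 5.04 FPKM in WT basal cells (0.61 ± 2.27) and the larger 158 FPKM in BT and 156 FPKM in WT. Cdc25c, a phosphatase of mitotic entry, was split over 3 loci. Of these 1 had 57.1 FPKM in BT and 17.2 FPKM in WT basal cells with an SE of 2.005 on the log2 scale. In suprabasal cells 1 had 144 FPKM in BT and 59.9 FPKM in WT (1.27 ± 1.30, q = 0.873). The locus with the smallest SE in basal cells had 7.88 FPKM in BT and 10.3 FPKM in WT (-0.39 ± 0.51). The locus with the smallest SE in suprabasal cells had 2.68 FPKM in BT and 2.14 FPKM in WT (0.33 ± 1.05).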
